A study of Mus musculus with 12 samples.

Results

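The genes for macrophage lipid transport and efferocytosis are Abca1, Abcg1, Lrp1, Cd36, Pparg, Axl, Mertk and Mfge8. They were picked by gene symbol, and 8 of 8 were found among the 750 genes of the panel. Macrophages that clear dying cells take on the cholesterol and fatty acids of their prey. Receptors for phosphatidylserine and its bridging proteins bind the dying cell, scavenger receptors take up lipid, and ABC transporters pass cholesterol out to lipoproteins under the control of nuclear receptors. Olaparib kills BRCA-deficient tumor cells, and the study asked how the immune response to it changes when a STING agonist is added. None of these genes is used by macrophages alone: Cd36 and Pparg are abundant in fat, Cd36 is also found on small-vessel endothelium and platelets, Lrp1 in fibroblasts, and Mfge8 in mammary epithelium.

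RNA came from tumors of the K14-Cre;Brcaf/fTrp53f/f model, in which a keratin 14 promoter drives Cre and mammary epithelium loses Brca1 and p53. All 4 groups carried these deletions. Pieces of tumor had been placed in the fat pad of the mammary gland of syngeneic recipients, FVB/129P2 mice, whose ages were not given in the sources used here, and mice were randomized when the tumors measured 150 to 300 mm3. Vehicle mice received diluted DMSO by the intraperitoneal route and saline into the tumor. The other groups received ADU-S100 (a cyclic dinucleotide that activates STING; 50 μg in 40 μl, once, into the tumor), olaparib (a PARP inhibitor; 50 mg/kg daily into the peritoneum), or both. Tumors were taken at 3 days, 3 per group and 12 in all, and 100 ng of RNA from snap-frozen tumor was counted on an nCounter panel, in which color-coded probes are counted without amplification. The labels identify each tumor by a number, and nothing in them says whether tumors came from 1 donor tumor or several. Tumors also differed in how deeply they were counted, so the spread between tumors may be partly technical.

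Normalized counts were deposited, and the counts before scaling could be recovered because each tumor's values are whole multiples of 1 step. The recovered counts summed to between 106206 in the olaparib tumor 1517 and 1519471 in the vehicle tumor 1269. Tumor 1517 had been scaled up 10.5-fold, and the olaparib tumor 1521 was scaled to 0.589 of its counts, so that the olaparib group held both extremes. The 3 combination tumors had nearly the same factor, from 0.81 to 0.824. Values are in normalized counts, differences are on the log2(normalized count + 1) scale, and a gene was tested if it reached 20 in at least 3 tumors. This left 689 genes, with 8 of 8 members among them. RNA came from a small piece of each tumor whose cells were not separated, so fewer cells of a type and less RNA per cell cannot be told apart. What tissue each piece held was not measured.

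Of the macrophage marker list, 13 of 18 symbols were on the panel (Adgre1 under its older name Emr1). In each of the 12 tumors 12 of the 13, all but Marco, had more counts than the background, taken as the tumor's median count over the 30 weakest genes of the panel. Their summed normalized counts were 8623 to 21248 in vehicle tumors, 12357 to 28193 with ADU-S100, 11347 to 15162 with olaparib and 16503 to 17753 with the combination. Macrophage transcripts were therefore measured in the 12 tumors. After each tumor's median over all genes was subtracted, the Pearson correlation with Csf1r, the receptor for the macrophage growth factor, was 0.80 for Axl and 0.42 for Lrp1, and it lay between -0.38 and -0.06 for the other 6 genes. Without the 2 tumors farthest from the median of the member these values were 0.64 for Axl, -0.12 for Lrp1 and 0.58 for Mertk. Before the subtraction they were 0.86 for Axl, 0.79 for Lrp1, 0.73 for Mertk, 0.68 for Cd36, 0.65 for Pparg, 0.61 for Abca1, 0.21 for Abcg1 and -0.10 for Mfge8. Other macrophage genes gave another order: with Mrc1 the correlation after subtraction was 0.72 for Cd36 and 0.54 for Pparg, and with Cd68 it was -0.67 and -0.78 (0.33 and 0.24 before subtraction). The likeness of a member to macrophage genes thus depended on the marker and the scaling. Which cells the transcripts came from was not measured.

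The members lie on 7 chromosomes (2, 4, 5, 6, 7, 10 and 17, in GRCm38.p6 coordinates from RefSeq), with Axl and Mfge8 both on chromosome 7. RefSeq gave 9 promoter windows for 7 members. Pparg encodes the nuclear receptor PPARγ, which pairs with RXR and binds repeats of the half-site AGGTCA, and Cd36 is one of its textbook targets. Because these 2 genes varied together more closely than any other pair of members, their 250 bases before the transcription start are shown, 5′ to 3′ on the strand of the gene, with AGGTCA or its reverse complement TGACCT in capitals. The motif was chosen after the sequences had been looked at.

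Cd36, chr5:17835897-17836146, minus strand: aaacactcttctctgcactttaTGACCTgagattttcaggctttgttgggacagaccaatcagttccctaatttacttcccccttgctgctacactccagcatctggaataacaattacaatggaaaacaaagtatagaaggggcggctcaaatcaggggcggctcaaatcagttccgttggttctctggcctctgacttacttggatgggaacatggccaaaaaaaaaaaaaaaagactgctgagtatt

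Pparg, first start, chr6:115360894-115361143, plus strand: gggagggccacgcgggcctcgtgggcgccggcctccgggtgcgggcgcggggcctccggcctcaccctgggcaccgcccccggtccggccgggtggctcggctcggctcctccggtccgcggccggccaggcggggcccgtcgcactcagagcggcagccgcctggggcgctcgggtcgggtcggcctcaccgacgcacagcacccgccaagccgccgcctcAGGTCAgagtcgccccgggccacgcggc

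Pparg, second start, chr6:115362099-115362348, plus strand: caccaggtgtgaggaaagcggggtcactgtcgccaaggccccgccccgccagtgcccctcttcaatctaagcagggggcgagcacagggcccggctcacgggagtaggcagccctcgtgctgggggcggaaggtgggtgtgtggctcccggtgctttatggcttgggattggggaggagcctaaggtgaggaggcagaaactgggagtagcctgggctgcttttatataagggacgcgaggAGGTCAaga

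The half-site began 228 bases before the Cd36 start and reads TGACCT there. It began 28 and 9 bases before the first and second of the Pparg starts, and the last Pparg window (chr6:115421816-115422065, plus strand) did not hold it. Across 32851 mouse promoter windows of the same length, searched on both strands, 14.0% held AGGTCA, and 3 of the 9 member windows did. The paired forms AGGTCANAGGTCA and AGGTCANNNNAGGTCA occurred in 0.0335% and 0.0152% of all windows and in 0 of the 9. A match of 6 letters is a description of the window and not a binding site.

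**Figure D1:**
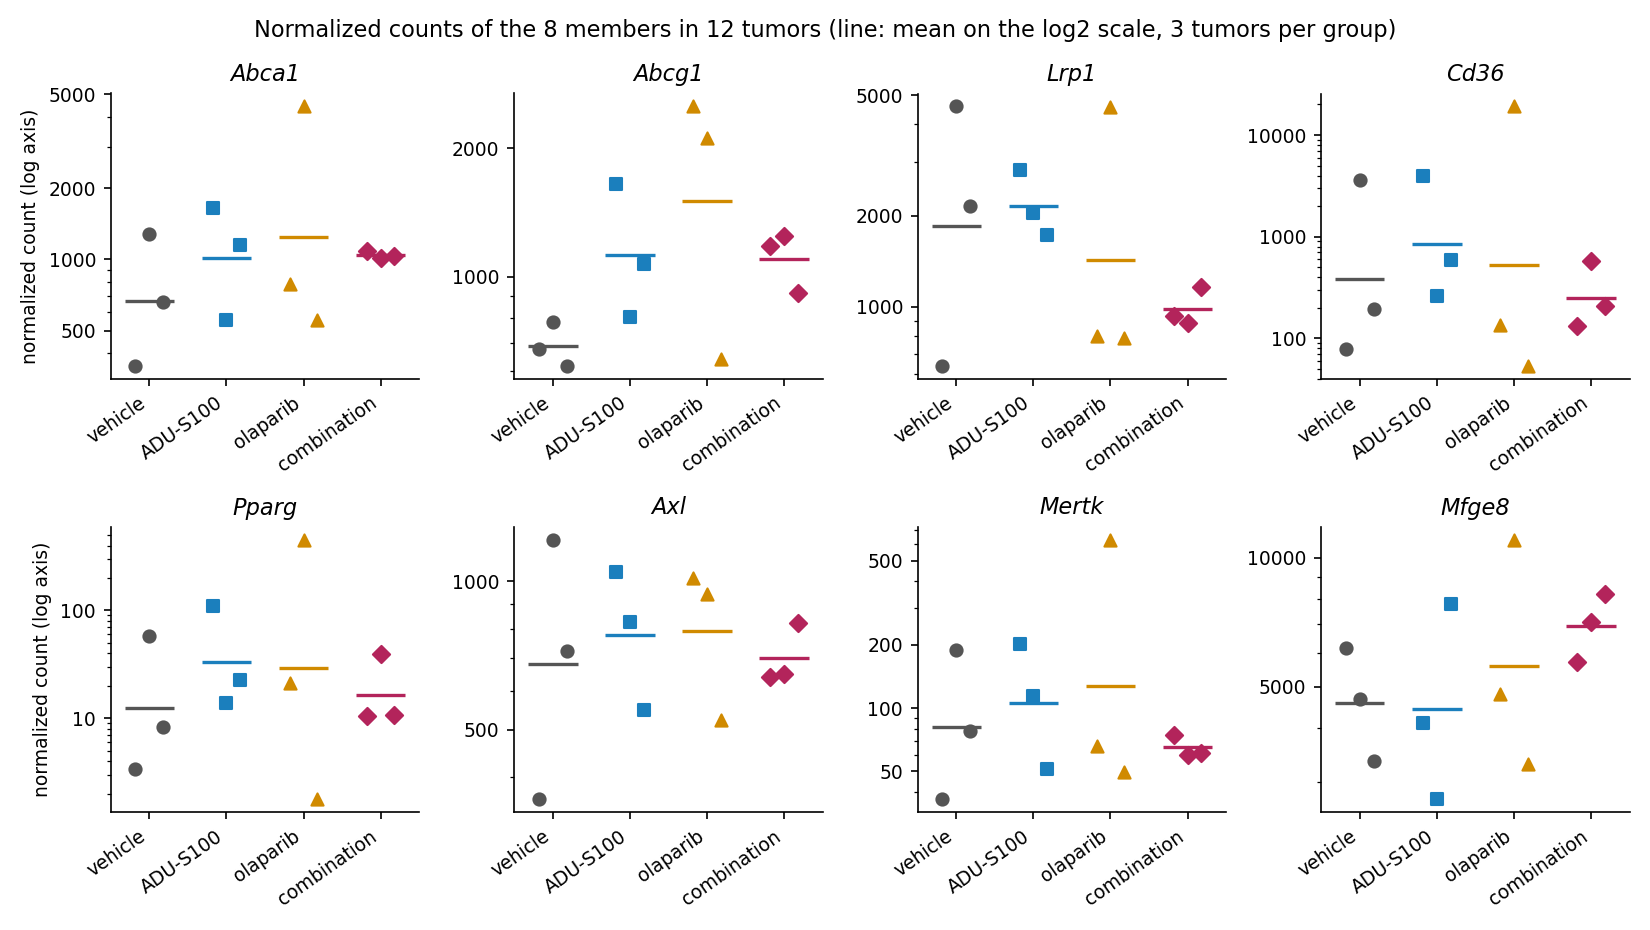
Normalized count (log axis, its own range in each panel) of each member in the 12 tumors. Points are tumors, 3 per treatment, and the line is the group mean on the log2 scale. A single olaparib tumor stands far above the others in Cd36 (19104) and Pparg (451), and combination tumors lie close together in Abca1 (1014 to 1090).

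Abca1 and Abcg1 are the transporters of cholesterol efflux, Abca1 loading lipid-poor apolipoprotein A-I and Abcg1 loading formed HDL particles. Abca1 measured 354, 1280 and 661 in the vehicle tumors 1269, 1529 and 1536. It measured 1646, 552 and 1151 in the ADU-S100 tumors 1506, 1512 and 1513, and 785, 4443 and 556 in the olaparib tumors 1510, 1517 and 1521. In the combination tumors 1251, 1270 and 1539 it was 1090, 1014 and 1031. The combination tumors agreed within 1.08-fold and lay inside the range of each other group, while the olaparib tumors spanned 7.99-fold. Group means ran, from low to high, vehicle, ADU-S100, combination and olaparib, and neighbours in this order differed by less than their spread. Against vehicle, the combination differed by 0.64 ± 0.75 (SE), with a 95% interval of -1.01 to 2.30. This was 1.11 without the vehicle tumor 1529, 0.18 without the vehicle tumor 1269, and 0.17 over the tumors whose numbers begin with 15.

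Abcg1 measured 679, 782 and 618 in vehicle tumors (same order of tumors throughout). With ADU-S100 it was 1652, 806 and 1070, with olaparib 2506, 2117 and 640, and with the combination 1178, 1247 and 914. Each ADU-S100 and each combination tumor was above each vehicle tumor, whereas the olaparib group held both the highest values of the series and one within the vehicle range. The difference from vehicle was 0.71 ± 0.52 (SE) with ADU-S100, 1.12 ± 0.52 with olaparib and 0.68 ± 0.52 with the combination. For olaparib the 95% interval was -0.01 to 2.25, with an unadjusted p of 0.0515 in limma and an adjusted p of 0.582. The result turned on tumor 1521. Without it the difference with olaparib was 1.74 ± 0.39 (interval 0.88 to 2.60, adjusted p = 0.0322 in limma), in a fit where 55 of 689 genes, or 7.98%, also passed. Abcg1 kept its sign in all 3 comparisons with vehicle under every alternative run, although scaling the tumors to the same median lowered the differences to 0.30 with ADU-S100, 0.77 with olaparib and 0.47 with the combination. The smallest values over the alternatives were 0.19, 0.60 and 0.32.

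Lrp1 and Cd36 bring lipid in. Lrp1 is a large endocytic receptor for apolipoprotein E remnants and for calreticulin on dying cells. It measured 639, 4584 and 2147 in vehicle tumors, 2837, 2037 and 1726 with ADU-S100, 803, 4548 and 793 with olaparib, and 931, 883 and 1167 with the combination. Combination tumors were all below the ADU-S100 tumors, by 1.13 ± 0.77 on the log2 scale (interval of the difference -2.82 to 0.57, adjusted p = 0.614 in limma, or -0.24 when the model held the leading digits of the tumor number), and lay between the vehicle tumors. Lrp1 had the lowest group mean with the combination, followed by olaparib, vehicle and ADU-S100. The difference of the combination from vehicle was -0.90 (interval -2.60 to 0.79) and became -0.25 without the vehicle tumor 1529, which held the highest value of the series, and -1.67 without the vehicle tumor 1269, which held the lowest.

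Cd36 is a scavenger receptor and fatty acid carrier that binds oxidized lipoproteins and thrombospondin. It measured 79.1, 3590 and 195 in vehicle tumors, 3971, 259 and 589 with ADU-S100, 136, 19104 and 53.6 with olaparib, and 134, 571 and 209 with the combination. One tumor in each group stood above the other two, by 18.4-fold in vehicle, 6.74-fold with ADU-S100, 140-fold with olaparib and 2.73-fold with the combination. Over the series the highest value was 356-fold the lowest, and both rested on at least 70 recovered counts. The groups overlapped throughout. The difference of the combination from vehicle was -0.60 with an interval of -5.05 to 3.85 and its sign turned without the vehicle tumor 1529 (1.01), while without the vehicle tumor 1269 it was -1.73.

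Pparg, the regulator of fat cell formation and of lipid handling in macrophages, had low counts. It measured 3.41, 58.0 and 8.31 in vehicle tumors, 111, 13.8 and 22.8 with ADU-S100, 21.4, 451 and 1.77 with olaparib, and 10.5, 39.6 and 10.7 with the combination. Its recovered counts ran from 3 to 48 per tumor. In tumors 1269 and 1521, with 5 and 3 counts, it was no higher than the median of 7 for the 30 weakest genes of the panel, so no ratio to these tumors is given, and the differences of Pparg from vehicle and olaparib, with its spread, rest in part on values at background. Tumors 1529, 1506, 1517 and 1270 were the highest of their groups, as they were for Cd36. The combination differed from vehicle by 0.39, with an interval of -3.11 to 3.89, or by 0.26 when values below the background of a tumor were raised to it. The sign turned in 5 of its alternatives, which ran from -1.01 to 1.46, among them those without the vehicle tumor 1269 or the combination tumor 1270.

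**Figure D2:**
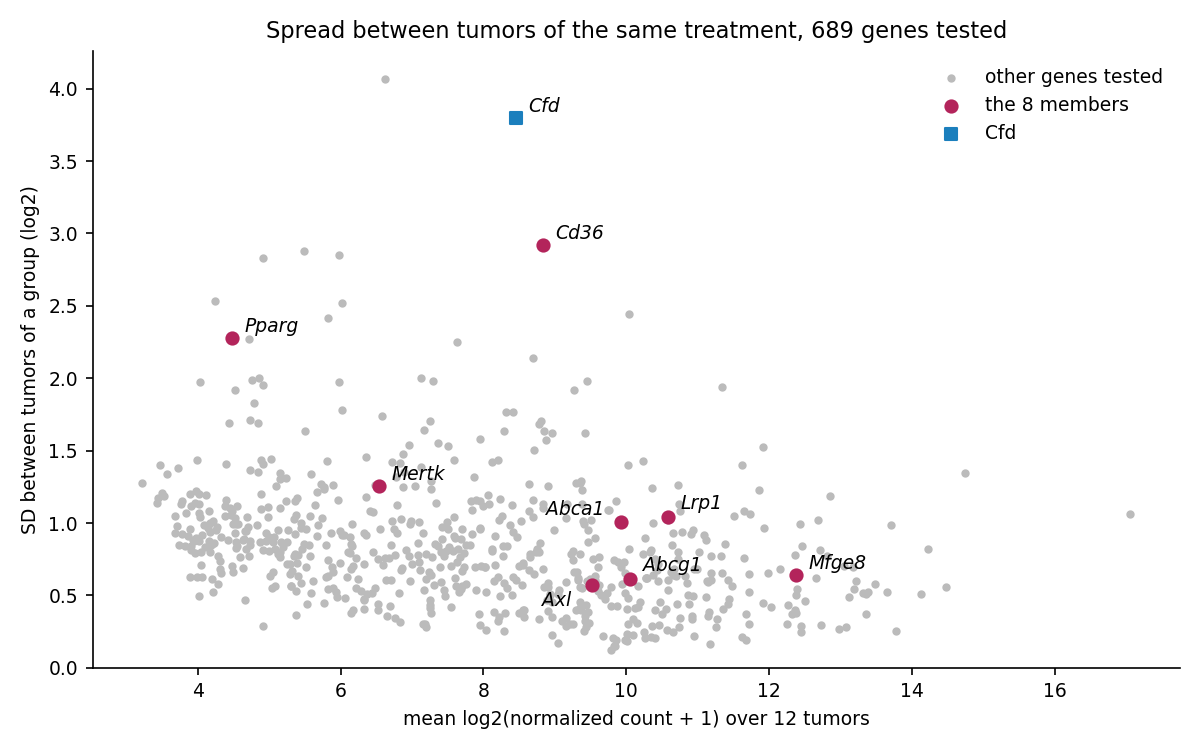
Standard deviation between tumors of the same treatment (log2, pooled over the 4 groups) against mean log2 value, for the 689 genes tested. Cd36 (2.92) and Pparg (2.28) lie above the median gene (0.787) and below Cfd (3.80), while Axl, Abcg1 and Mfge8 lie below it.

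Axl and Mertk belong to the TAM family of receptor tyrosine kinases, which bind dying cells through Gas6 and protein S and dampen inflammatory signaling. Axl measured 361, 1213 and 721 in vehicle tumors, 1042, 825 and 548 with ADU-S100, 1015, 943 and 524 with olaparib, and 639, 648 and 824 with the combination. No group lay apart from another, and Axl had the narrowest range of the 8 genes (3.36-fold). Its group means lay within 0.22 on the log2 scale of each other. The combination differed from vehicle by 0.04, with an interval of -1.04 to 1.12, so that a change of more than about 1.12 on the log2 scale either way is outside the interval. This sign turned when tumors were scaled to the same median (-0.17) and without the vehicle tumor 1269 (-0.42), and the value was 0.45 without the vehicle tumor 1529.

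Mertk, the TAM receptor of resident phagocytes, measured 36.8, 189 and 77.6 in vehicle tumors and 202, 114 and 51.4 with ADU-S100. With olaparib it was 66.2, 629 and 49.5, and with the combination 74.5, 60.2 and 61.5. Its recovered counts ran from 34 to 127 per tumor, and the 629 of tumor 1517 rested on 60 of them. Combination tumors agreed within 1.24-fold and lay inside the vehicle range. The difference of the combination was -0.32 from vehicle (interval -2.33 to 1.68) and -0.96 from olaparib (interval -2.97 to 1.04), and without tumor 1517 the latter changed sign (0.18). The difference from vehicle was 0.28 without the vehicle tumor 1529, -0.89 without the vehicle tumor 1269 and -0.97 over the tumors whose numbers begin with 15. The correlation of both TAM receptors, Axl and Mertk, over the 12 tumors was -0.14 once tumor medians were subtracted (Spearman's rho = 0.17), 0.36 without the 2 farthest tumors, and 0.70 with no subtraction.

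Mfge8 encodes lactadherin, a secreted protein that bridges phosphatidylserine on the dying cell and integrins on the phagocyte. It measured 6163, 4686 and 3358 in vehicle tumors, 4107, 2731 and 7810 with ADU-S100, 4814, 10993 and 3297 with olaparib, and 5707, 7082 and 8213 with the combination. Combination tumors held the highest group mean but overlapped each other group. The combination differed by 0.59 from vehicle (interval -0.57 to 1.75) and by 0.64 from ADU-S100 (interval -0.52 to 1.80), and both signs held under every alternative run. The sizes did not: the difference from ADU-S100 ran from 0.29 without the ADU-S100 tumor 1512 to 1.06 with the scaling factor as a covariate (1.05 without tumor 1513), and that from vehicle from 0.17 in edgeR with TMM to 1.05 over the tumors whose numbers begin with 15 (0.37 without the vehicle tumor 1536). Against the other 9 tumors together, the combination was 0.51 higher, with a two-sided exact permutation p of 0.223 and an adjusted p of 0.659.

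**Figure D3:**
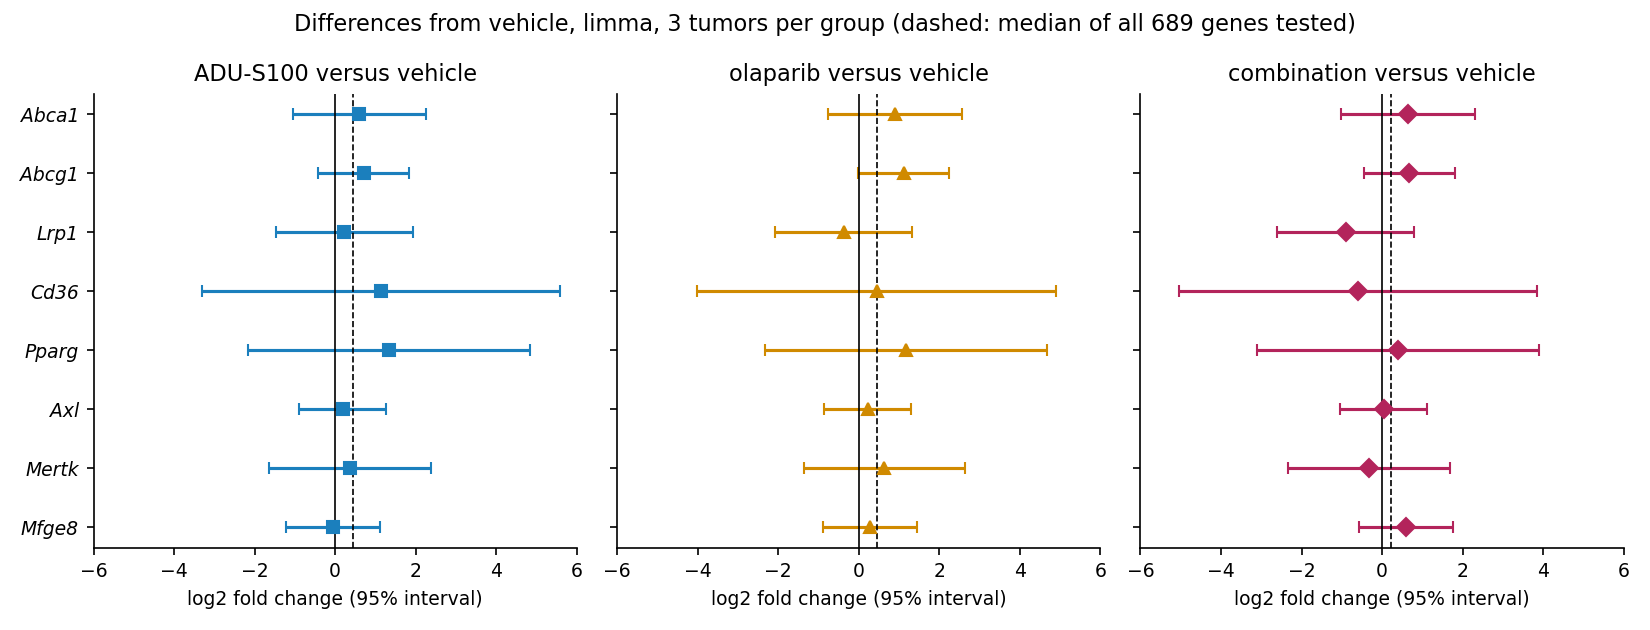
Log2 fold change of each member from vehicle (points) with its 95% interval (bars) in limma, for ADU-S100, olaparib and the combination with 3 tumors per group. The dashed line is the median of the 689 genes tested. Each interval includes 0, narrowly so for Abcg1 with olaparib (-0.01 to 2.25), and the intervals of Cd36 and Pparg are the widest.

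Across the 8 comparisons, 0 of 8 members had an adjusted p below 0.05 in limma, beside 0% of all 689 genes in each comparison. At an unadjusted p below 0.05 the count was also 0 of 8 in each. The share of all genes below that level was 7.69% for the combination against vehicle, 4.79% for ADU-S100 against vehicle and 7.26% for olaparib against vehicle. It was 9.14% for the combination against ADU-S100 and 7.26% against olaparib, 3.05% for the average effect of ADU-S100, 7.55% for that of olaparib and 10.9% for their interaction. Groups of 3 tumors did not overlap for 1 member (Abcg1) between combination and vehicle, where this held for 20% of all genes, and for 1 (Abcg1) between ADU-S100 and vehicle (14.9% of all genes). It held for 0 members between olaparib and vehicle (4.79%), for 1 (Lrp1) between combination and ADU-S100 (31.3%) and for 0 between combination and olaparib (12.8%). Against the other 9 tumors together, the exact permutation p of the combination was 0.205 for Lrp1, the smallest of the 8, with adjusted p-values of 0.655 or more for each member.

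The median over all genes was itself away from 0, and changes of the members are best read beside it. The median log2 difference from vehicle was 0.21 over the members and 0.21 over all genes with the combination. It was 0.49 and 0.44 with ADU-S100, and 0.54 and 0.45 with olaparib. Combination tumors had a median difference of -0.42 over the members and -0.22 over all genes from ADU-S100, and of -0.49 and -0.15 from olaparib. The 3 comparisons with vehicle share its 3 tumors. In the interaction, meaning how far the combination departs from the sum of both single-drug differences from vehicle, 7 of 8 members and 69.1% of all genes were below 0, with a median of -1.004 beside -0.55 over all genes, and Mfge8 (0.36 ± 0.75, SE) was the exception. The lean of all genes depended on the scaling: with tumors scaled to the same median it was 6 of 8 members and 49.8% of all genes, and in edgeR with TMM 5 of 8 and 48.8%. With the scaling factor as a covariate, 1 of 8 members (Abcg1, -0.13) and 31.5% of all genes were below 0, and without the olaparib tumor 1517 it was 4 of 8 members and 58.6%. Without the olaparib tumor 1521 it was 8 of 8 members and 73.0%. The interaction was -1.15 ± 0.73 for Abcg1, with an adjusted p of at least 0.453 in limma for each member. Without tumor 1521 it was -1.77 for Abcg1 (adjusted p = 0.0518 in limma), in a fit where 86 of 689 genes, or 12.5%, passed 0.05.

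What set the members apart from one another was how much they varied between tumors given the same treatment. Cd36 had a pooled standard deviation of 2.92 within groups on the log2 scale, which ranked 3 of 689 genes, and Pparg one of 2.28, which ranked 11, or 2.09 and rank 13 when values below background were raised to it. The median gene had 0.787. Mertk (1.26), Lrp1 (1.04) and Abca1 (1.01) were above this median, and Mfge8 (0.639), Abcg1 (0.614) and Axl (0.571) below it. With each tumor's median subtracted, Cd36 still ranked 3 with 2.38, Pparg ranked 14 with 1.75, and Abca1 dropped to 0.556 beside a median of 0.658. With this subtraction Mertk (0.757) and Lrp1 (0.665) came closer to the median. Without the weakly counted tumor 1517, Cd36 ranked 5 with 1.99 and Pparg 16 with 1.64, while Mertk had 0.827 and Abca1 0.669 beside a median of 0.667. The range of the group means of Cd36 was 1.75 and that of Pparg 1.34, each smaller than its spread within groups.

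The tumors with much Cd36 and Pparg were those with much Cfd. Cfd encodes adipsin, which is secreted mainly by fat cells, and was the only 1 of the 7 adipocyte markers listed that the panel measured. It measured 61.4, 3144 and 63.7 in vehicle tumors, 6101, 90.4 and 673 with ADU-S100, 337, 23851 and 14.7 with olaparib, and 24.3, 1841 and 118 with the combination. In each of the 4 groups the same tumor (1529, 1506, 1517 and 1270) was the highest in Cfd, Cd36 and Pparg. The correlation with Cfd over 12 tumors, with tumor medians subtracted, was r = 0.92 and rho = 0.91 for Cd36 and r = 0.94 and rho = 0.97 for Pparg. Leaving out the 2 tumors farthest from the median of the member gave 0.87 and 0.91. These are descriptions over tumors that share a scaling step, and genes were singled out for their likeness, so no p is given.

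**Figure D4:**
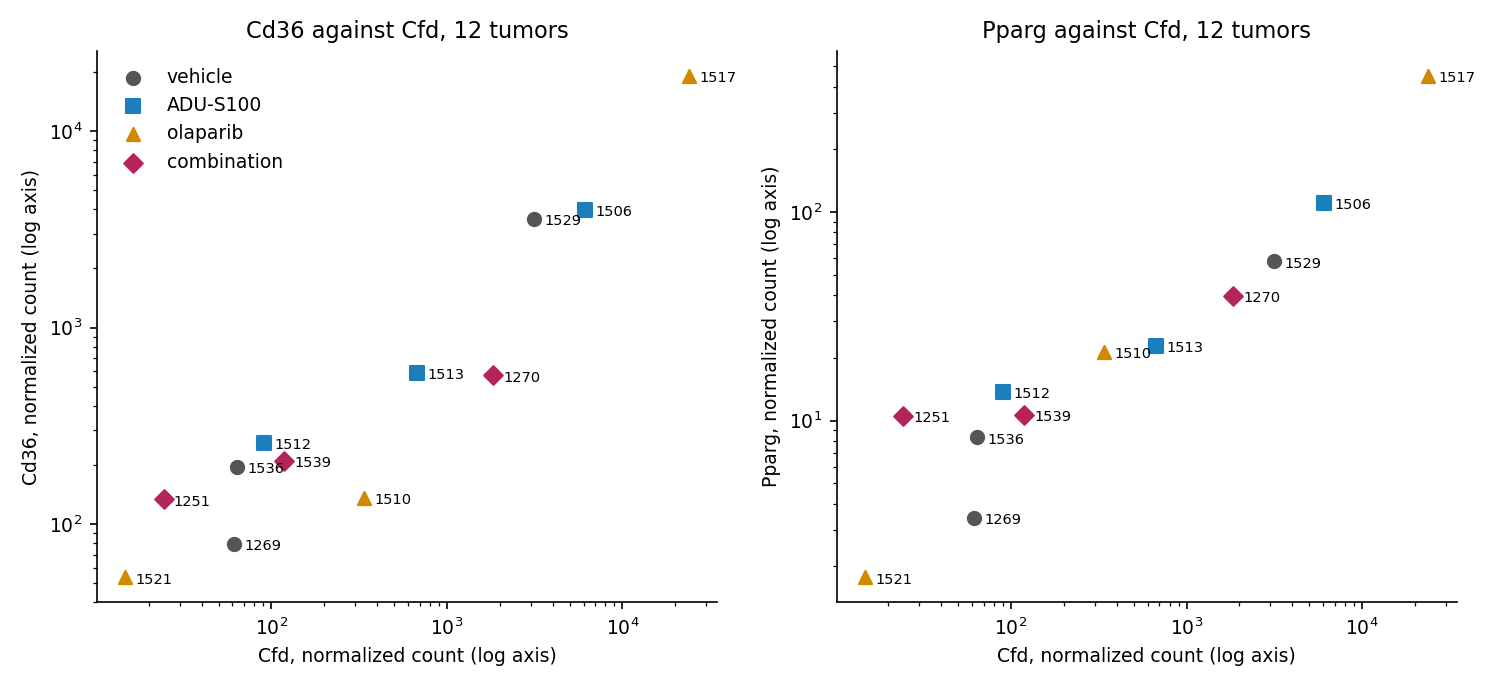
Cd36 (left) and Pparg (right) against Cfd, in normalized counts on log axes. Points are the 12 tumors with their numbers, marked by treatment. Values climb together over the whole range, and the upper end holds tumors of each treatment (1529, 1506, 1517 and, for Pparg, 1270).

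Endothelial markers moved with them in part. The 9 of 11 listed endothelial genes on the panel summed to 13294 in the vehicle tumor 1529 against 1854 and 3137 in the other two, to 11658 in the ADU-S100 tumor 1506 against 2366 and 2842, and to 35347 in the olaparib tumor 1517 against 906 and 1603. In the combination tumors the sums were 2037 to 2787, and tumor 1270, the highest in Cfd, had the lowest of them. Of the epithelial list 3 of 8 genes were measured. The correlation with Epcam, with tumor medians subtracted, was -0.84 for Cd36, -0.77 for Pparg and -0.88 for Mertk (-0.62, -0.52 and -0.80 before subtraction). The summed epithelial counts did not follow this in each group. They were 13701 in tumor 1529 against 21499 and 10802 in the other vehicle tumors, and 12031 in 1506 against 11861 and 19063 with ADU-S100. In 1517 they were 12324 against 22177 and 16384 with olaparib, and in tumor 1270 they were 20694 against 18294 and 17779 with the combination. Both platelet markers measured, of 4 listed, summed to 77.3 to 293 per tumor. Each of these endothelial, epithelial and platelet markers was above the background in each tumor. The part that fat, vessels or platelets had in the Cd36 and Pparg levels was not tested.

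**Figure D5:**
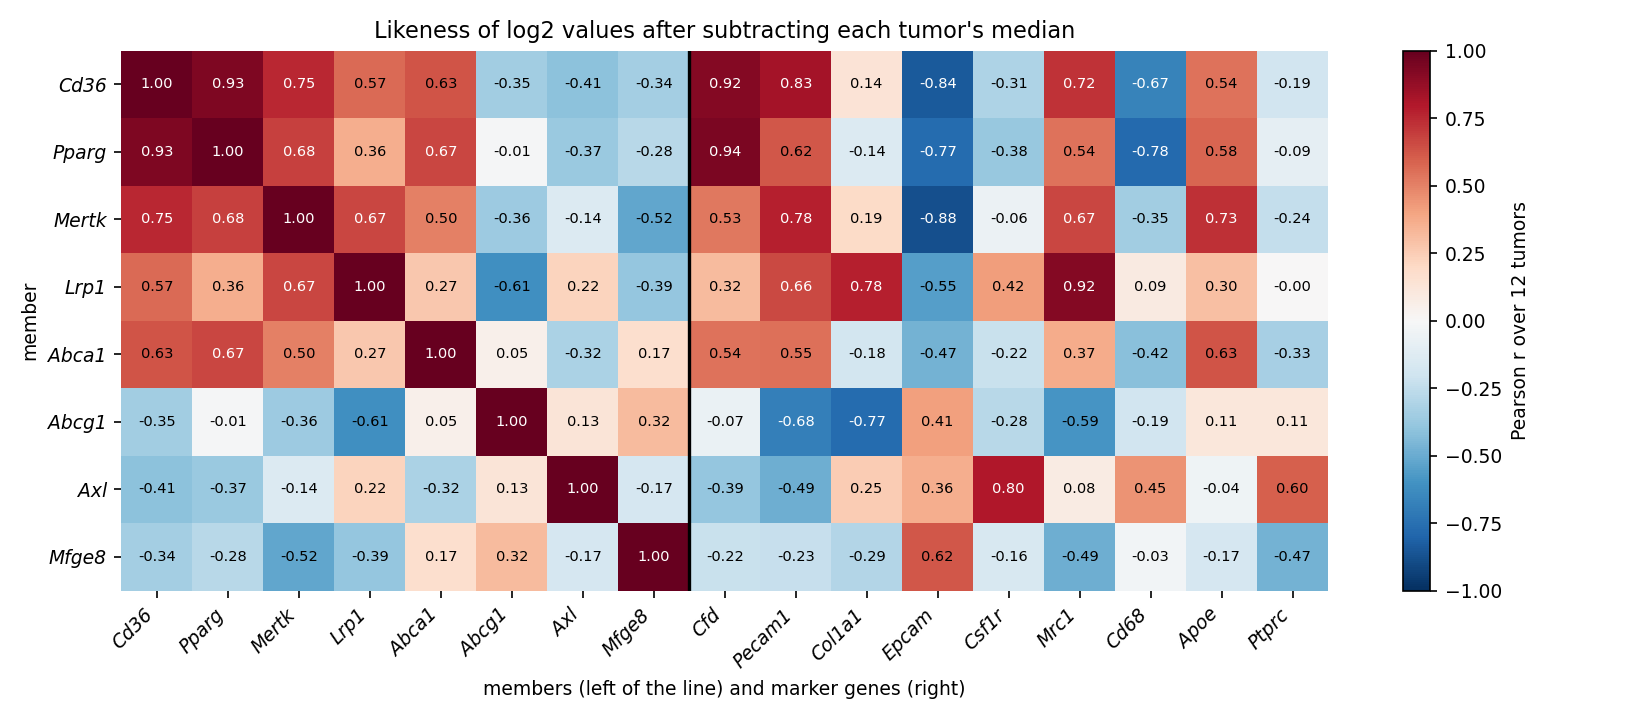
Pearson correlation over the 12 tumors of log2 values after subtracting each tumor's median, for the members with each other (left of the line) and with genes that mark cell types (right). Cd36 and Pparg correlate with each other (0.93) and with Cfd (0.92 and 0.94), Lrp1 with Mrc1 (0.92), and Axl with Csf1r (0.80), while Mfge8 is highest with Epcam (0.62).

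The 8 genes did not form 1 block. Over the 28 pairs of members the median correlation was 0.09 with tumor medians subtracted, 15 pairs were above 0, and values ran from -0.61 (Abcg1 and Lrp1) to 0.93 (Cd36 and Pparg). Without this subtraction the median was 0.655 and 27 pairs were above 0. Cd36 and Pparg also varied together within groups (0.95). Abca1 and Abcg1, both textbook targets of the LXR receptors, had a correlation of 0.05 with tumor medians subtracted, 0.64 without the subtraction and -0.25 within groups.

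Each member had its own closest genes among the 689. For Lrp1 these were Mrc1 (the mannose receptor of tissue macrophages, r = 0.92), Nfatc4 (0.88) and Itga5 (a fibronectin receptor subunit, 0.87), and its correlation with Col1a1, a collagen of fibroblasts, was 0.78. The fibroblast list (6 of 11 measured) summed to 16406 to 85438 in vehicle tumors, 31959 to 52999 with ADU-S100, 4349 to 20603 with olaparib and 13714 to 27430 with the combination. It was thus low in the same combination and olaparib groups in which Lrp1 had its lower group means, and its part in the Lrp1 levels was not tested. Axl was closest to Csf1r (0.80), Inpp5d (a phosphatase of blood cells, 0.79) and Pik3cd (a kinase of leukocytes, 0.76), and Mertk to Timd4 (a phosphatidylserine receptor of resident macrophages, 0.88), Csf2rb (0.87) and Icam2 (0.86). Mfge8 was closest to Pdgfc (0.90), App (0.85) and Ifi27 (0.84).

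Cd36 was closest to Cxcl12 (a stromal chemokine, 0.96), Cd55 (0.95) and Cxcl15 (0.95), and Pparg to Cd55 (0.97), Cfd (0.94) and Cd36 (0.93). The closest genes of both transporters rested on a pair of tumors. Abca1 was closest to Txnip (0.81), Foxp3 (0.74) and Klrc2 (0.73), which dropped to 0.46, 0.24 and 0.35 without tumors 1269 and 1517. Abcg1 was closest to Ccl27a (0.86), Nfkbia (0.86) and Mpo (0.81), which dropped to 0.24, 0.53 and -0.30 without tumors 1510 and 1529.

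Other genes of these pathways were counted from 3 lists. Of 26 further genes for lipid transport and its nuclear receptors, only Apoe was on the panel, so the LXR pathway could not be followed beyond the members. Apoe, the lipoprotein ligand of Lrp1 and acceptor of cholesterol, measured 2667, 11424 and 5308 in vehicle tumors, 10251, 3792 and 3862 with ADU-S100, 9155, 42347 and 5427 with olaparib, and 4764, 5810 and 4512 with the combination. The groups overlapped, and olaparib differed from vehicle by 1.23 ± 0.76 (adjusted p = 0.582 in limma). This was 0.37 without the olaparib tumor 1517, 1.85 without 1521 and 0.72 without the vehicle tumor 1269.

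Of the 15 scavenger and phagocytic receptors, 11 were measured, and 0 passed an adjusted p of 0.05 in any comparison. Clec7a, the β-glucan receptor Dectin-1, measured 25.2, 53.5 and 38.1 in vehicle tumors, 88.3, 64.8 and 28.5 with ADU-S100, 48.7, 31.4 and 58.3 with olaparib, and 131, 151 and 107 with the combination. The 31.4 of the olaparib tumor 1517 rested on 3 recovered counts, no more than its background. The combination tumors were all above the other 9, with a difference from vehicle of 1.76 ± 0.48 (unadjusted p = 0.00362, adjusted p = 0.278 in limma). Combination tumors did not overlap vehicle for 20% of all genes, ADU-S100 for 31.3% and olaparib for 12.8%. Clec7a is a gene that the study itself selected on these tumors, so its difference is not independent evidence. The other receptor below an unadjusted 0.05 between combination and vehicle was Cd14, which binds lipopolysaccharide and dying cells (0.91 ± 0.39, adjusted p = 0.553), and Mrc1 had the second largest difference (-1.32 ± 1.16, adjusted p = 0.949), which was -2.61 without the vehicle tumor 1269 and -0.43 without 1529. The list had 5 of 11 genes above 0 in that comparison, with a median of -0.11 beside 0.21 over all genes.

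Trem2, a lipid-sensing receptor of macrophages, differed by -1.64 ± 0.69 between combination and ADU-S100 (unadjusted p = 0.037, adjusted p = 0.492 in limma). It measured 1119, 485 and 264 with ADU-S100 and 187, 150 and 167 with the combination, without overlap, as held for 31.3% of all genes in this comparison. Clec7a differed there by 1.22 (adjusted p = 0.492) and had an average effect of ADU-S100 of 1.02 (unadjusted p = 0.0116, adjusted p = 0.999). The differences from olaparib below an unadjusted 0.05 were those of Clec7a (1.50 ± 0.48), Cxcl16 (the membrane-bound scavenger of oxidized lipoprotein, 1.16) and Marco (-1.22), with adjusted p = 0.594 for each in limma. Marco was at or below background in the ADU-S100 tumor 1512 and the olaparib tumor 1517, with 4 and 2 recovered counts. Between olaparib and vehicle they were those of Colec12 (-1.75, adjusted p = 0.577) and Havcr2 (1.48, adjusted p = 0.582). Single tumors carried much of both: Colec12 was -0.97 without the olaparib tumor 1510, and Havcr2 was 0.66 without the olaparib tumor 1517, where its 105 normalized counts rested on 10 recovered counts. Of the other differences here, that of Clec7a from ADU-S100 was 0.76 without the ADU-S100 tumor 1513, that of Trem2 was -1.09 without tumor 1506, and that of Cxcl16 was 0.78 without the olaparib tumor 1510. With ADU-S100 alone, Trem2 (0.99) and Colec12 (-0.73) had the largest differences from vehicle, with unadjusted p of 0.182 and 0.289. Trem2 was 0.34 when the vehicle tumor 1269 was left out and 0.44 when 1506 (ADU-S100) was, and Colec12 was -1.27 without the vehicle tumor 1269 and -0.35 without 1529.

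For recognition and engulfment of dying cells, 15 of 29 listed genes were measured, and 0 passed an adjusted p of 0.05 in any comparison. Itgax, the integrin αX chain of complement receptor 4, measured 83.9, 95.2 and 63.0 in vehicle tumors, 105, 104 and 72.8 with ADU-S100, 160, 105 and 105 with olaparib, and 222, 145 and 180 with the combination. Each combination tumor was above each vehicle and ADU-S100 tumor, by 1.16 ± 0.37 over vehicle (unadjusted p = 0.00855, adjusted p = 0.347 in limma) and 0.94 ± 0.37 over ADU-S100 (adjusted p = 0.492). Such a lack of overlap held for 20% of all genes against vehicle and 31.3% against ADU-S100. The average effect of olaparib on Itgax was 0.77 (unadjusted p = 0.0123, adjusted p = 0.529 in limma). Thbs1, the thrombospondin that Cd36 binds, had the next largest difference of the combination from vehicle (-1.09 ± 0.54, adjusted p = 0.652), which was -0.58 without the combination tumor 1270. With ADU-S100 alone these were Timd4 (1.04) and Itgam (1.02), each with an adjusted p of 0.809, and with olaparib Cx3cr1 (-0.72) and C3 (0.69), each with 0.623. Each of these 4 moved with single tumors. Over the tumors left out in turn Timd4 ran from 0.52 (without the vehicle tumor 1269) to 1.63 (without 1529), and was 0.62 without the ADU-S100 tumor 1506. Itgam ran from 0.41 (without 1269) to 1.57 (without the ADU-S100 tumor 1513). Cx3cr1 ran from -1.29 (without 1269) to -0.43 (without the vehicle tumor 1536), with -0.45 without 1529 and -0.44 without the olaparib tumor 1517. C3 ran from 0.15 (without 1517) to 1.06 (without the olaparib tumor 1521), with 0.40 without 1536. In the combination 11 of the 15 genes were above vehicle, with a median difference of 0.28 beside 0.21 over all genes.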

How the data were processed

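Normalized mRNA signal of 750 genes in 12 mouse tumors (4 groups of 3) was taken as the authors deposited it. The study's methods name background correction and scaling to positive controls and housekeeping genes, which were not analysed here. Whether a background had been subtracted before scaling cannot be told from the values, so recovered counts may be counts after such a subtraction. Groups came from the sample labels. For each tumor the value of 1 count was found as the step of which its values are whole multiples (100% of the values above the floor of 1, within 0.01 of a count). Totals of 106206 to 1519471 give the counting depth. As background, a median was taken over the recovered counts of the 30 weakest genes.

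Log2(value + 1) of the 689 genes with at least 20 in at least 3 tumors was fitted in limma 3.58.1 (R 4.3.3, one mean per group, eBayes), with Benjamini-Hochberg adjustment over all 689 and a threshold of 0.05. The average effect of a drug is the mean of its effects with and without the other. The combination was also set against the other 9 tumors with a two-sided exact permutation test over 220 splits, and 3 against 3 cannot go below 0.1. The limma fit was tested on simulated data. Likeness was ranked by Pearson correlation after subtracting each tumor's median. All members were named, with their 3 closest genes, and of the pathway lists those with an unadjusted p below 0.05 or the 2 largest differences.

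Members and lists were chosen with earlier results of these data known. Symbols were matched to RefSeq (GRCm38.p6), with 736 current, 8 older (Emr1 is Adgre1) and 6 unmatched. Promoters are the 250 bases before each RefSeq start. Alternatives were pseudocount, filter, scaling to the same median, quantile normalization, a mean-variance trend, the methods' t-test, models with just the groups of a comparison, edgeR 4.0.16 on recovered counts, the scaling factor as a covariate, the first digits of the tumor number as a block, background subtraction, and leaving out each tumor. Raising values to the background of the tumor was added after the data were seen. Figures were drawn with matplotlib 3.10.9.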

Additional observations from a re-analysis of the deposited data

How the results depend on the processing

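The count of members past the threshold stayed at 0 in each of the 8 comparisons under the alternatives run, with 1 exception. Without the olaparib tumor 1521, 1 member (Abcg1) passed between olaparib and vehicle, so that over the left-out tumors this count ranged from 0 to 1. Of the 64 member differences, 13 kept their sign under all of their 25 to 27 alternatives and 51 turned in at least 1. With the log2 scaling factor in the model as a covariate, Cd36 went from 0.45 to -2.72 between olaparib and vehicle, where tumors 1517 and 1521 hold the extreme factors, and the cause was not tested. Unadjusted p-values below 0.05 came up under at least 1 alternative for 4 members. The number of all 689 genes below that level in the same fit is given beside each. For Lrp1 this held in 4 comparisons. These were combination against ADU-S100 (smallest 0.00833 in limma, with only the groups compared, 2 alternatives of 27, beside 157 of 689 genes) and combination against vehicle (0.016, edgeR with TMM, 2 of 27, beside 62). The others were the average effect of olaparib (0.0246, edgeR with TMM, 5 of 25, beside 71) and olaparib against vehicle (0.0361 in limma, with that covariate, 1 of 27, beside 57). For Abcg1 it held in 5. These were olaparib against vehicle (5 of 27) and combination against vehicle (0.0161, the methods' t-test, beside 86 of 689 genes). Without tumor 1521, in limma, they were also the interaction (0.0067, beside 229 of 689), the average effect of olaparib (0.00806, beside 117) and combination against olaparib (0.0207, beside 199). The smallest for olaparib against vehicle, 0.00114, came from that same fit, beside 225 of 689 genes. With that covariate it held in limma for Cd36 (0.031 for olaparib against vehicle, 0.0396 for the interaction) and Pparg (0.0194 for the combination against olaparib, 0.0255 for the interaction). With that covariate the genes below 0.05 were 57 of 689 for olaparib against vehicle, 89 for the combination against olaparib and 69 for the interaction. Numbers beginning with 12 belong to 1 of 3 vehicle and 2 of 3 combination tumors and to 0 of the others, and what the numbers stand for was not given in the sources used here. With this series as a block, genes with an unadjusted p below 0.05 between combination and ADU-S100 went from 63 to 11, and between combination and olaparib the signs of Abca1 (0.19), Lrp1 (0.35) and Axl (0.39) turned. No paired analysis was possible because the tumor numbers differ between all groups. With 3 tumors per group the intervals of Cd36 and Pparg leave even large changes undetectable.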
